A study of Drosophila melanogaster with 3 samples.

Results

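Distal intergenic peaks are the binding sites of CG17359 whose summit lay more than 1000 bp from every annotated transcription start site and inside no annotated gene. Of the 7287 peaks in the reproducible, thresholded list, 899 were of this kind, or 12.3% (exact 95% binomial interval 11.6 to 13.1). The remainder comprised 3046 peaks within 500 bp of a start site (promoter peaks), 776 at 500 to 1000 bp, 2437 distal intronic peaks and 129 distal exonic ones. In the 7287 strongest peaks of the separate replicates, 876, 869 and 908 were distal intergenic, a share of 12.1% ± 0.285 (SD, n = 3).

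Whole Drosophila melanogaster embryos of 0 to 14 h were collected as 3 biological replicates from 1 transgenic line that stably expressed CG17359 with GFP fused to its C-terminus. Chromatin was sonicated to 200 to 800 bp and precipitated with an anti-GFP antibody, and each replicate was called against the same control. All replicates carry the same transgene, so the lists hold no untagged or mutant group to compare with. Whole embryos of a wide age range mix many cell types, and binding in few cells cannot be told apart from weak binding in many.

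CG17359 is a zinc-finger protein. Sequence far from any start site in the compact fly genome holds enhancers, which raise transcription of a gene at a distance, and insulators, which are bound by zinc-finger proteins such as CTCF and Su(Hw). A gap between neighbouring genes is called divergent when both genes start at it, convergent when both end at it, and tandem when both genes are read in the same direction.

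The sequences at strong distal intergenic summits were rich in A and T. The plus strand of the Release 6 (dm6) RefSeq genome is shown for 100 bp on either side of the summit in 3 of the strongest peaks, named by the genes on the left and right of the gap. Capitals mark matches to the fixed sequence elements: TATAAA and the Pho core (GCCATNTT), which overlap in the first window, TATAAA and the AP-1 site (TGANTCA) in the second, and the homeodomain core TAATTA in the third.
COX7AL2/CG31668 (chr2L:2202312-2202512): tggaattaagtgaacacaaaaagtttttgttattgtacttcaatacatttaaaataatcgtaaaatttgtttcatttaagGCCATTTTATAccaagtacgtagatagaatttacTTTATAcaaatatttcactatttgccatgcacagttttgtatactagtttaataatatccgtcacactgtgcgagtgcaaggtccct
tRNA:Ser-GCT-2-2/foxo (chr3R:14053512-14053712): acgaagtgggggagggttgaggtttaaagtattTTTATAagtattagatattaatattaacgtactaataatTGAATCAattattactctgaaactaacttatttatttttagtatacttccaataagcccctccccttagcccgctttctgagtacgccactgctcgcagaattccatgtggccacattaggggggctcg
lncRNA:CR45695/chinmo (chr2L:1649313-1649513): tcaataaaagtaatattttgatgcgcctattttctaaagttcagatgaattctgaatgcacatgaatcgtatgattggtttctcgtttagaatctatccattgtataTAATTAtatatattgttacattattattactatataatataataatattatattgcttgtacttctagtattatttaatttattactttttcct

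A smaller group of peaks held cores of known insulator or promoter proteins within 50 bp of the summit. The strongest peak shown with each is given with the element in capitals: the CTCF core (AGNNGGCGC, here 3 times), the Su(Hw) core (GCATACTTT) and Motif 1 of M1BP (GGTCACACT, here 2 times as a direct repeat).
soti/cv-c (chr3R:14391378-14391478): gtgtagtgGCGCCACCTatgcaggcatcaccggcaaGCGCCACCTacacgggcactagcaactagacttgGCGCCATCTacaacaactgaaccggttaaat
CG11349/CG7465 (chr3L:4475098-4475198): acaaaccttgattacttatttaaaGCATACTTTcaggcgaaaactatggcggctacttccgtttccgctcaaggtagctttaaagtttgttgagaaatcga
slp1/slp2 (chr2L:3832468-3832568): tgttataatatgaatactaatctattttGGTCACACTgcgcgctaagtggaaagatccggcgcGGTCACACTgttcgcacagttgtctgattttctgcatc

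An 8-letter word, CACTGAGA, stood on either or both sides of many summits and pointed toward them. It is written CACTGAGA to the left of the summit and as its reverse complement TCTCAGTG to the right. The word was found in these same windows after their values had been seen, so its frequencies are a description. The 2 strongest peaks that could be shown with the word on both sides are given with 140 bp on either side of the summit and the word in capitals, followed by the peak between CG43401 and CG43402, which held it on the right.
lncRNA:CR45303/lncRNA:CR45693 (chr2L:14502629-14502909): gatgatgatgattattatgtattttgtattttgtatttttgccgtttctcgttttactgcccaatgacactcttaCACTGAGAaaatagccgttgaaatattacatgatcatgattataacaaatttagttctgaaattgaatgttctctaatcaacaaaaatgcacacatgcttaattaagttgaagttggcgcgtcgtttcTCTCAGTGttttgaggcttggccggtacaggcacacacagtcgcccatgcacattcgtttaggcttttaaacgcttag
lncRNA:CR44711/GCS2alpha (chrX:21593949-21594229): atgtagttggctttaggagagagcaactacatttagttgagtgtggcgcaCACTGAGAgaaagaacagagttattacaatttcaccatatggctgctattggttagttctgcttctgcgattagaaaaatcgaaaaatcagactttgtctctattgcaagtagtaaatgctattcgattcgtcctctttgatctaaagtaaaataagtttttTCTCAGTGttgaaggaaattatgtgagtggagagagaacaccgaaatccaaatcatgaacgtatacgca
CG43401/CG43402 (chr2L:1433803-1434003): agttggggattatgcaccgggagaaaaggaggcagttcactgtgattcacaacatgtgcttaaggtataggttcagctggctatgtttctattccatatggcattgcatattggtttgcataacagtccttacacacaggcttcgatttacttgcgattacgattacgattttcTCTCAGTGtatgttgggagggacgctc

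Within 200 bp of the summit, CACTGAGA pointed toward the summit in 98 of 899 distal intergenic peaks (10.9%, exact 95% interval 8.94 to 13.1) and away from it in 5 (0.556%, 0.181 to 1.29). It occurred in either direction in 103 peaks, or 11.5%, beside 6.01% of all thresholded peaks and 1.37% of windows of equal length tiled over the sequence that could hold a distal intergenic peak. The word pointed toward 7.96% of distal intronic summits and 2.10% of promoter summits. In both of these classes the share pointing away was below 0.5%, at 0.451% and 0.460%, so the direction of the word was shared by the classes and its frequency was highest in the distal ones.

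The word recurred in each replicate's own list, toward the summit in 11.1%, 10.1% and 11.7% of distal intergenic peaks (10.96% ± 0.780, SD, n = 3). The share exceeded that of distal intronic peaks by 3.36 ± 1.04 percentage points and that of promoter peaks by 8.83 ± 0.656 (SD, n = 3), in 3 of 3 replicates each time. The word was picked on these peaks, so these differences were not tested.

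The distance of the word from the summit was narrow. Its 104 matches toward distal intergenic summits had a median distance of 68 bp and quartiles of 54 and 93.3 bp. At distal intronic summits the median was 77 bp, and at promoter summits 84 bp. Both sides held the word in 6 distal intergenic peaks. A related word that overlaps it only in part, CACTGNNAA (N is any base), also picked after the values were seen, pointed toward 20.6% of distal intergenic summits and away from 3.78%. In either direction it was in 23.6% of them, 16.3% of all thresholded peaks and 7.63% of tiled windows.

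**Figure D1:**
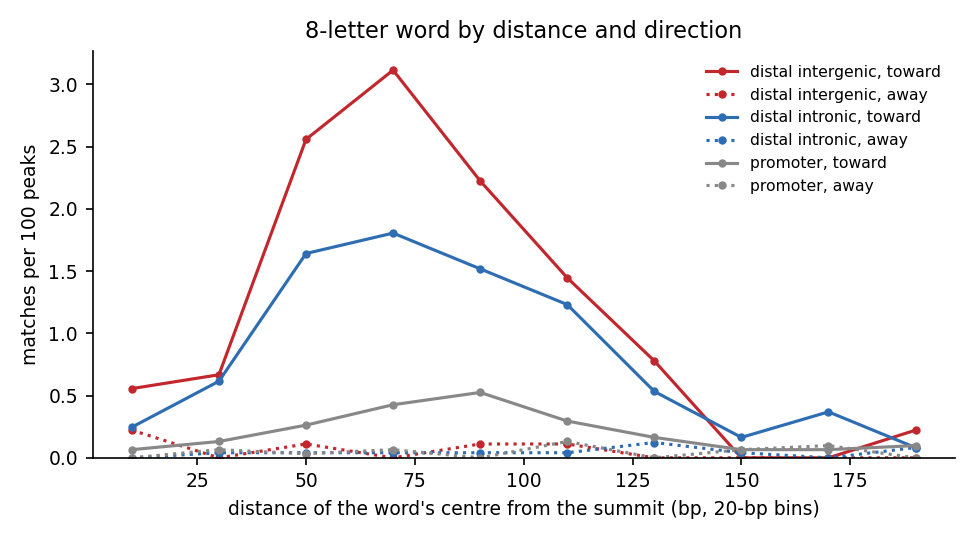
Matches of the word CACTGAGA per 100 peaks against its distance from the summit in 20-bp bins, for distal intergenic (red), distal intronic (blue) and promoter (grey) peaks of the thresholded list. Solid lines are matches that point toward the summit and dotted lines those that point away. The red solid line peaks at 3.11 matches per 100 peaks in the bin centred 70 bp from the summit.

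Peaks with the word pointing toward the summit had a median signal value of 415, beside 359 in the 801 other distal intergenic peaks. The signal value is the authors' own peak height and was compared only within a list. Peaks with the word lay a median of 4408 bp from the nearest start site and the others 3657 bp. They were found among the strongest peaks of all 3 replicates in 74.5% of cases, and the others in 69.2%. These differences have no replicate error.

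The base composition around distal intergenic summits formed an AT-rich core between GC-richer shoulders. Mean G+C was 31.6% within 50 bp of the summit and 45.5% at 200 to 300 bp, a rise of 13.9 percentage points. The same rise was 11.7 points in distal intronic and 7.92 points in promoter peaks. In the replicates' own lists it was 13.1, 12.1 and 13.7 points in distal intergenic peaks (13.0 ± 0.849, SD, n = 3).

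**Figure D2:**
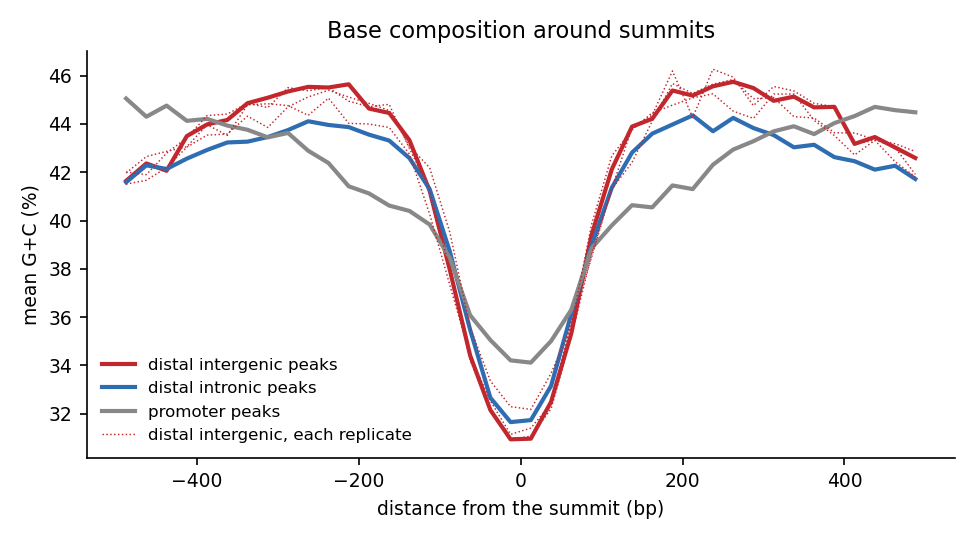
Mean G+C (%) in 25-bp bins against distance from the summit (bp), for distal intergenic (red), distal intronic (blue) and promoter (grey) peaks of the thresholded list. The thin dotted lines are the distal intergenic peaks of each replicate. The red line has the lowest core, 31.6% within 50 bp, and shoulders of 45.5% at 200 to 300 bp.

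Over 100 bp on either side of the summit the median G+C was 33.3% in distal intergenic, 34.3% in distal intronic and 34.8% in promoter peaks. Windows tiled over the eligible intergenic sequence had a median of 41.3%. The replicate medians for distal intergenic peaks were 34.0% ± 0.287 (SD, n = 3), and their difference from distal intronic peaks was -0.50 points in each of the 3 replicates.

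The cores of the insulator proteins CTCF and Su(Hw), but not that of ZIPIC, were more frequent at distal intergenic than at distal intronic summits. The CTCF core was within 50 bp of 20 distal intergenic summits (2.22%, exact 95% interval 1.36 to 3.42), beside 0.985% of distal intronic, 1.67% of promoter and 1.66% of all thresholded summits. Tiled eligible windows of the same length held it in 0.610% of cases, and windows 300 bp from the same summits in 1.00%. The Su(Hw) core was at 14 distal intergenic summits (1.56%, 0.854 to 2.60), beside 0.492% of distal intronic, 0.525% of promoter and 0.659% of all summits. It was in 0.259% of tiled windows and 0.111% of the windows 300 bp away.

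In the replicates' own lists the CTCF core was at 1.81% ± 0.325 and the Su(Hw) core at 1.21% ± 0.177 of distal intergenic summits (SD, n = 3). These exceeded the distal intronic shares by 0.893 ± 0.259 and 0.789 ± 0.204 percentage points (exact two-sided sign-flip permutation test, p = 0.25 each, 3 of 3 replicates). That is the smallest p that 3 replicates allow. In all, 10 differences were tested in this way over the replicates, and each had the same sign in all 3. Each had an exact permutation p of 0.25 and a Benjamini-Hochberg adjusted p of 0.25, so none could pass a threshold of 0.05. Of the 18 elements only the CTCF core, the Su(Hw) core and the DRE (described below) were among them. The 10 are thus a selection, and their shared sign describes them only. The core of ZIPIC, another insulator zinc-finger protein (AGGGNTGG), was at 2 summits, or 0.222%, beside 0.369% of distal intronic summits, 0.576% of all peaks and 0.733% of tiled windows. In the replicates' own lists it was at 0.265% ± 0.0699 of distal intergenic and 0.334% ± 0.0461 of distal intronic summits (SD, n = 3), a difference that was not tested.

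Elements of housekeeping promoters were less frequent at distal intergenic and at distal intronic summits than at promoter summits. The DRE (TATCGATA), bound by Dref and BEAF-32, was at 1 of 899 distal intergenic summits (0.111%), beside 0.0821% of distal intronic, 2.33% of promoter and 1.03% of all summits and 0.209% of tiled windows. In the replicates' own lists it was more frequent, at 0.457%, 0.345% and 0.330% of distal intergenic summits. These exceeded the distal intronic shares by 0.182 ± 0.0571 percentage points (SD, n = 3, exact sign-flip permutation test, p = 0.25). Ohler motif 7 (CANCNCTA) was at 16 (1.78%), beside 2.42% of distal intronic, 5.98% of promoter and 3.83% of all summits and 2.53% of tiled windows. Motif 1 was at 2 (0.222%), beside 0.205% of distal intronic, 1.08% of promoter and 0.549% of all summits and 0.0453% of tiled windows.

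AT-rich elements were frequent. TATAAA was at 240 distal intergenic summits (26.7%), 23.3% of all summits and 12.3% of tiled windows. TAATTA was at 97 (10.8%), beside 9.91% of all and 7.31% of tiled windows, and a run of 8 A at 93 (10.3%), beside 10.3% of all and 5.41% of tiled windows. The part of base composition in these shares was not tested. Elements of developmental transcription factors stood near the share in all peaks. The GATA site (TGATAAG) was at 2.00% of distal intergenic, 2.42% of distal intronic and 2.14% of all summits and 1.18% of tiled windows. In the same order the shares for the AP-1 site were 2.56%, 3.41%, 2.59% and 1.75%. For the STAT site (TTCNNNGAA) they were 2.67%, 3.28%, 2.96% and 3.01%.

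The Pho core, of a Polycomb recruiter, was at 1.89% of distal intergenic and 1.93% of all summits, and the GAGA repeat (GAGAGA) at 4.0% and 3.76%. The Zelda site (CAGGTAG) was at 0.445% of distal intergenic and 0.384% of all summits, and the Mef2 site at 0.111% and 0.110%. The E-box CACCTG was at 1.67%, beside 2.21% of all and 3.08% of tiled windows, and the repeat CACACACA at 1.00%, beside 1.50% and 2.04%. A match of letters is not a bound site, and both strands were searched for every element.

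Distal intergenic peaks, like distal intronic ones, were rarer among the very strongest peaks than further down. They were 4 of the 100 strongest pooled peaks (4.0%, exact 95% interval 1.10 to 9.93), and 70 of the next 900 (7.78%, 6.11 to 9.72). Between ranks 1001 and 7287 their share stayed between 12.9% and 13.5%. Below the thresholded list it was 15.2% at ranks 7288 to 15000 and 17.6% at ranks 15001 to 30000. From the first to the last of these bins the distal intronic share went from 19.0% to 40.7% and the promoter share from 63.0% to 21.8%.

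**Figure D3:**
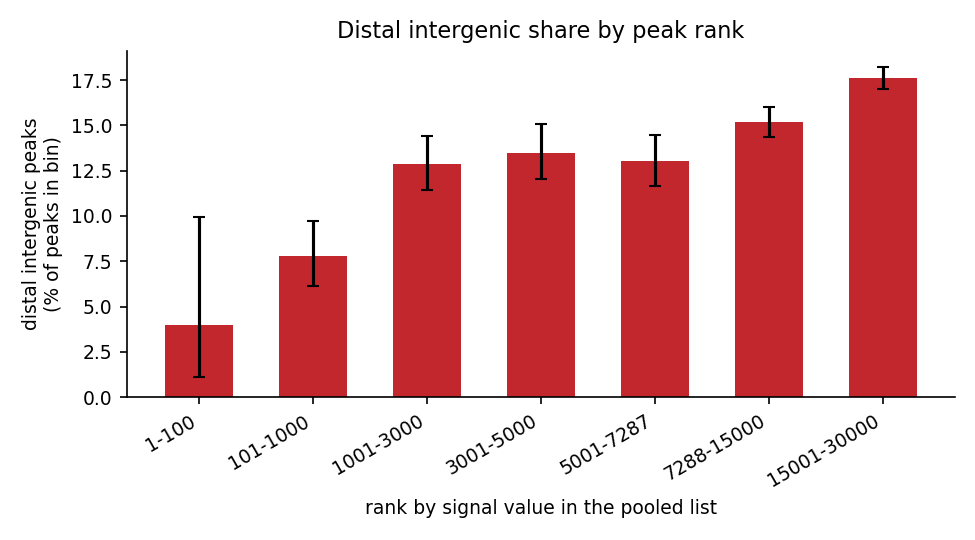
Distal intergenic peaks as a percentage of all pooled peaks, in bins of rank by signal value (1 is strongest). Bars are shares and error bars exact 95% binomial intervals, which cover counting of peaks only. The share is 4.0% in the strongest bin and 17.6% in the weakest.

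The median signal value of distal intergenic peaks was 365, with quartiles of 266 and 565, beside medians of 368 in distal intronic and 409 in promoter peaks. On the log2 scale of each replicate's own values, the median of distal intergenic peaks was below that of promoter peaks by 0.23, 0.15 and 0.21 (mean difference -0.19 ± 0.041, SD, n = 3, exact sign-flip permutation test, p = 0.25). The difference from distal intronic peaks was -0.026 ± 0.024, about the size of the spread between replicates.

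Of the 899 peaks, 627 overlapped the 7287 strongest peaks of all 3 replicates (69.7%, exact 95% interval 66.6 to 72.7), beside 71.8% of all thresholded peaks, 70.0% of distal intronic and 74.0% of promoter peaks. The thresholded list was derived from these same 3 replicates, so overlap with them was partly built in and is no independent check. Another 194 were found in exactly 2 replicates (21.6%), 72 in 1 (8.01%) and 6 in 0 (0.667%). Among all thresholded peaks these shares were 20.04%, 7.73% and 0.480%. Some peak of any strength overlapped in 890, 888 and 893 cases in replicates 1, 2 and 3. For all thresholded peaks this held in 99.2%, 99.4% and 99.1%. Summits moved by a median of 13, 17 and 7 bp between the pooled list and replicates 1, 2 and 3. The medians were the same at distal intronic peaks, and 13, 17 and 8 bp at promoter peaks.

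The 15 strongest distal intergenic peaks were found among the strongest peaks in every replicate. The strongest, on 2R at 13035107 to 13035547, lay in the convergent gap between Su(z)2, which encodes a Polycomb group protein, and CG13323. It had signal values of 1341, 1411 and 2188 in replicates 1, 2 and 3 and 4924 in the thresholded list. It lay 27368 bp beyond the end of Su(z)2 and nearer to CG13323, 9416 bp from the end of that gene. The related Polycomb group gene Psc bordered another of the strongest peaks, on 2R at 12958018 to 12958427, with values of 602, 661 and 1045. That peak lay 7767 bp from the end of Psc and 2518 bp from the end of its other neighbour, CG13321. Both peaks lay in the same stretch of 2R, and how often Polycomb group genes border peaks in general was not counted.

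The peak between COX7AL2, a cytochrome c oxidase subunit gene, and CG31668 had values of 1118, 1177 and 1719 in replicates 1, 2 and 3. It lay 4500 bp upstream of COX7AL2 in a tandem gap of 5808 bp. In the convergent gap of 1340 bp between blw, which encodes an ATP synthase subunit, and the mitotic cyclin gene CycB, the values were 930, 1175 and 1396. The gap of Sol1 and the cytochrome P450 gene Cyp9f2 was shorter still, 437 bp, and its peak, 215 bp from the end of Cyp9f2, had values of 730, 771 and 1068. These peaks sat beside gene ends, so a short distance to a gene did not mean a short distance to a start site.

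Upstream of foxo, the forkhead factor of insulin signalling, a peak 3333 bp from the gene had values of 858, 905 and 1286. Its partner across the gap was tRNA:Ser-GCT-2-2. The divergent gap of 4094 bp between lncRNA:CR45695 and chinmo, a BTB zinc-finger gene of neuronal temporal identity, held 4 distal intergenic summits. The strongest, 1845 bp upstream of chinmo, had values of 933, 486 and 1287, so replicate 2 ranked it lower (349) than replicates 1 (63) and 3 (90). On the other side of lncRNA:CR45695, toward lncRNA:CR44603, stood 6 more peaks, among them those at ranks 8 and 10 of the distal intergenic peaks, with thresholded values of 2444 and 2235.

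Between slp1 and slp2, a pair of forkhead segmentation genes, the peak shown above with Motif 1 had values of 541, 715 and 949. It lay 4322 bp upstream of slp2, and it also held CACTGAGA toward the summit. The other strongest gaps were those of CG43131 and RabGGTa (a Rab geranylgeranyl transferase subunit), by (tensin) and mura, NijA (ninjurin A) and CG43245, CG43401 and CG43402, and the autophagy gene Atg13 with stck (the integrin adaptor PINCH). Their thresholded values ran from 1903 to 2461.

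**Figure D4:**
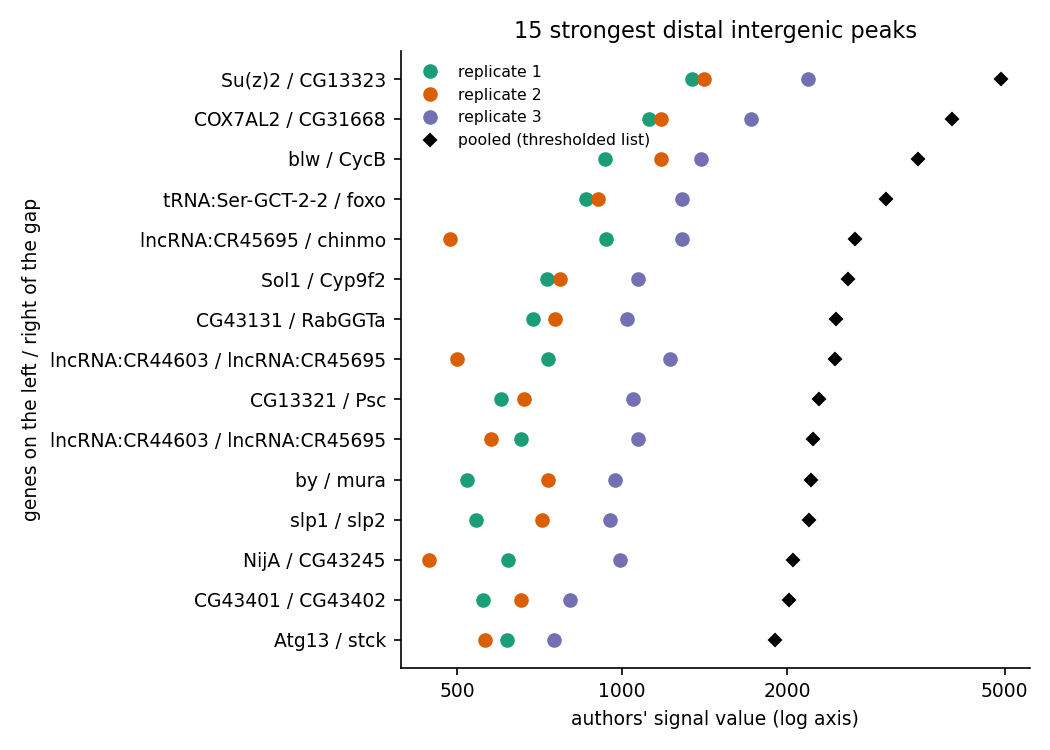
Signal values of the 15 strongest distal intergenic peaks on a log axis, in replicates 1 to 3 (coloured points) and in the thresholded list made from pooled reads (black diamonds), labelled by the genes on the left and right of the gap. Values compare within a list only, and those of the thresholded list run from 1903 to 4924.

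Distal intergenic summits lay a median of 3746 bp from the nearest start site, with quartiles of 2034 and 7360 bp. The replicate medians were 3510, 3679 and 3706 bp. Nearest start sites belonged to protein-coding genes in 595 cases (66.2%), to long or other non-coding RNA genes in 275 (30.6%) and to tRNA genes in 26 (2.89%). The nearest gene edge was a gene's end in 472 cases (52.5%, exact 95% interval 49.2 to 55.8) and a gene's start in 427.

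The farthest summit, 37680 bp from any start site, lay between bab1 and bab2, BTB factors of leg patterning, on 3L at 1139561 to 1139658. It was weak, with values of 71.4, 65.0 and 93.3 in replicates 1, 2 and 3. Of the next 4, 3 lay in the NijA and CG43245 gap, at 37221, 36641 and 35220 bp. The other, 36761 bp away, lay in the 245765-bp gap between Pld, the phospholipase D gene, and lncRNA:CR46075, with values of 108, 181 and 214.

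Just inside the 1000-bp limit were summits at 1011 bp from chinmo (signal value 274), 1012 bp from lncRNA:CR45234 (216) and 1016 bp from CG13047 (295). Just outside were those at 985 bp from wuc (340), 977 bp from CG9498 (860) and 974 bp from Prip (581).

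Distal intergenic peaks were denser between divergent genes than between tandem or convergent ones. Divergent gaps held 232 of them (25.8%) in 19.3% of the eligible sequence, tandem gaps 449 (49.9%) in 49.9%, and convergent gaps 218 (24.2%) in 26.9%. Eligible sequence is all sequence that meets the rule, 33.4 Mb over the 6 arms. Per Mb of it, the replicates had 35.5 ± 1.44 peaks in divergent, 26.6 ± 0.173 in tandem and 23.6 ± 1.07 in convergent gaps (SD, n = 3). The log2 ratio of divergent to convergent density was 0.59 ± 0.028 and that of divergent to tandem 0.42 ± 0.052 (exact sign-flip permutation test over 3 replicates, p = 0.25 each). With gaps over 50 kb left out these ratios were 0.35 and 0.13, so part of the difference rested on long gaps. Median signal values were alike in the 3 orientations, 366, 368 and 360.

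Density was highest in the shortest gaps and lowest in the longest. Gaps of up to 2 kb had 72.4 ± 8.71 peaks per eligible Mb, those of 2 to 5 kb 55.6 ± 1.50, those of 5 to 10 kb 37.6 ± 1.75, those of 10 to 20 kb 36.2 ± 1.02, those of 20 to 50 kb 24.0 ± 1.02 and those over 50 kb 4.54 ± 0.602 (SD, n = 3). In the thresholded list the fall was not steady, with 35.2 per Mb at 5 to 10 kb and 38.3 at 10 to 20 kb. The gaps over 50 kb numbered 78 and made up 9.25 Mb of the eligible sequence but held 44 peaks. The median signal value of those peaks was 375, beside 385 in gaps of up to 2 kb. Bins of 2 Mb without any distal intergenic peak, among them bins next to centromeres, held 8.15 Mb of the eligible sequence. How much of that lay in gaps over 50 kb was not counted, and gap length was not tested apart from position on the arm.

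**Figure D5:**
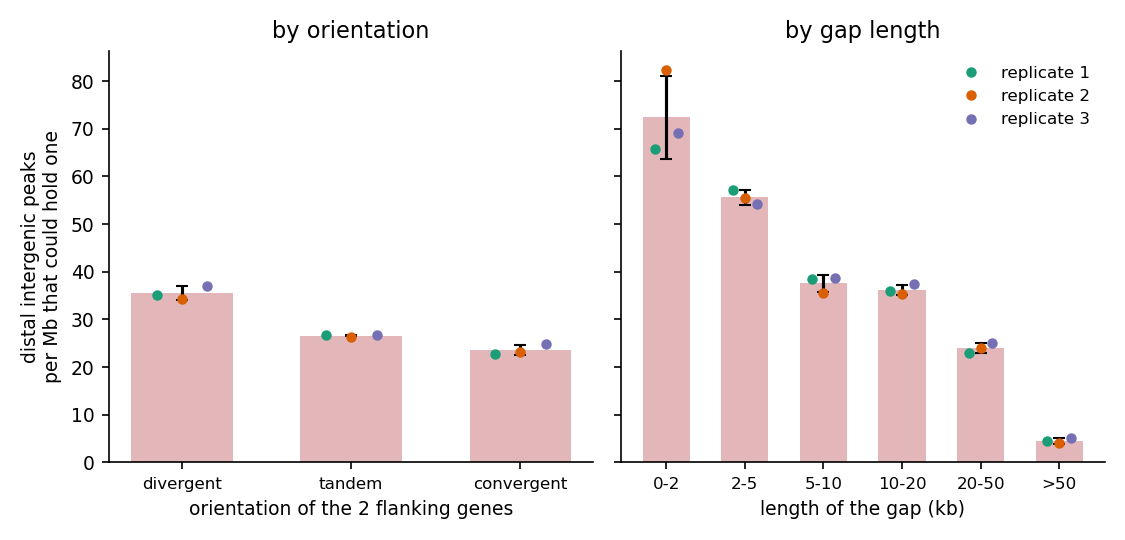
Distal intergenic peaks per Mb of sequence that could hold one, by orientation of the flanking genes (left) and by gap length in kb (right). Bars are means of 3 replicates, error bars SDs and points the replicates. Divergent gaps stand highest on the left at 35.5 per Mb, and density on the right is 72.4 per Mb in the shortest gaps and 4.54 in the longest.

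Of 4793 gaps with any eligible base, 531 held a distal intergenic peak (11.1%), and 186 of these held 2 or more, with 554 peaks among them. Neighbouring summits in 1 gap were a median of 2638 bp apart. Gaps with 14 peaks each were found at 2 places, both on 3L. The first, 33.0 kb between tRNA:Ile-TAT-1-2 and CG13898 (770463 to 803426), had summits a median of 1988 bp apart with thresholded values from 237 to 1080. In replicates 1, 2 and 3 it held 14, 11 and 13 peaks. The second, 75.05 kb between NijA and CG43245 (10696878 to 10771924), held 14 in every replicate, with thresholded values from 222 to 2048. All 14 lay in the part nearer CG43245, from 2104 to 37221 bp from that gene.

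Gaps with 7 peaks each were 4 in number. They were the gap between lncRNA:CR44886 and lncRNA:CR46243 and that between lncRNA:CR43298 and lncRNA:CR45482 on X, and on 3L the gap between CG17154 and vers and that between vvl, a POU-domain factor gene of tracheal and neural development, and lncRNA:CR45115. The CG17154 and vers gap held 6, 3 and 7 peaks in replicates 1, 2 and 3. In the vvl gap of 70.5 kb they were 5, 6 and 6. Long non-coding RNA genes bordered many of the crowded gaps, but not those with 14 peaks. Over all gaps, those beside such a gene held 446 of the 899 peaks in 13.1 of the 33.4 eligible Mb.

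Chromosome arms differed in density. On 3L there were 289 distal intergenic peaks (32.1%), or 33.5 ± 1.86 per eligible Mb over replicates (SD, n = 3), and on 2R 120, or 17.2 ± 1.04. Arms 2L, 3R and X had 30.3 ± 0.284, 26.6 ± 0.297 and 22.2 ± 1.15 per Mb. Chromosome 4 held 6 peaks, with a median signal value of 855, beside medians from 358 to 370 on the other arms. Density was uneven within arms: on 3L the first 2 Mb had 121 peaks per eligible Mb and the stretch from 10 to 12 Mb had 117. Of 70 bins of 2 Mb, 9 held no distal intergenic peak, and these held 8.15 Mb of eligible sequence. They included 2R up to 6 Mb, 3R up to 4 Mb and 3L beyond 26 Mb, next to the centromeres. On 2R these bins held 1.13, 1.35 and 0.953 of its 6.94 eligible Mb, so part of its low density rested on them. The other 2R bins ran from 17.6 to 54.6 peaks per eligible Mb. Empty bins also lay on 2L and X.

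Annotated transposable elements held 2 of the 899 summits (0.222%, exact 95% interval 0.0270 to 0.801), although they made up 11.4% of the eligible sequence. The share among all thresholded summits was 0.233%. Whether reads in repeats were kept by the authors' alignment is not given in the sources used here, so absence of binding in repeats cannot be told apart from reads left out.

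Promoters of the genes nearest to distal intergenic peaks were occupied about as often as those of all genes. The nearest start site, where protein-coding, belonged to a gene with a promoter peak in 131 of 595 cases (22.02%, exact 95% interval 18.8 to 25.6), beside 23.9% of all 13945 protein-coding genes. For distal intronic peaks it was 1171 of 2103 (55.7%, 53.5 to 57.8). In the replicates' own lists the shares were 22.6% ± 1.03 and 54.2% ± 2.51 (SD, n = 3), and the difference had the same sign in 3 of 3 (exact sign-flip permutation test, p = 0.25). Several intronic peaks can share a gene, so these cases are not independent. Of the 131, the distal intergenic peak was the stronger in 57.

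Gene lists chosen with earlier results of these data known were counted by how many of their members that border eligible sequence also border a distal intergenic peak. Among all 7249 bordering genes 979 did so (13.5%), with 26.9 peaks per eligible Mb in their gaps, and among the 5827 protein-coding ones 689 (11.8%). The 26.9 is taken over all 33.4 eligible Mb, including the 8.15 Mb in 2-Mb bins that held no distal intergenic peak. How much of each list's sequence lay in such bins was not counted. Genes with larger gaps have more room for a peak, so the density is given beside each share. Genes on the 2 sides of a gap, such as pyr and ths, count the same peaks. Genes are thus not independent, and the exact intervals on these shares do not allow for this.

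Secreted ligand, neural transcription factor, and homeodomain and patterning genes bordered distal intergenic peaks in larger shares than all bordering genes. Of 32 bordering genes for secreted signalling ligands, 14 did so (43.8%, exact 95% interval 26.4 to 62.3), with 65.2 peaks per Mb. The EGF receptor ligand gene vn had a peak 24151 bp upstream of it with values of 280 in replicate 1 and 336 in replicate 2. That peak lay much nearer to the start of CG5568 across the gap, at 1686 bp. No peak overlapped it in replicate 3, although its thresholded value was 960. The FGF genes pyr and ths shared a gap with 3 peaks, the strongest at 235, 227 and 282 in replicates 1, 2 and 3. The gap between Wnt4 and wg, the Wingless gene, held 5, of which the strongest had values of 184, 160 and 283 and lay 11024 bp from wg.

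Among 32 bordering genes of neural transcription factors, 13 bordered a distal intergenic peak (40.6%, 23.7 to 59.4), with 57.1 per Mb. Beside chinmo, they included zfh2, a zinc-finger homeodomain gene on chromosome 4, with values of 478, 473 and 600 in replicates 1, 2 and 3, and the Sox gene D with 179, 233 and 251. Homeodomain and patterning factor genes did so in 23 of 71 cases (32.4%, 21.8 to 44.5), with 34.4 per Mb. Among these the Pax6 gene toy had a peak 6752 bp upstream with values of 261, 239 and 391. That peak lay nearer to the start of fuss across the gap, at 4484 bp.

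Mesoderm and muscle genes bordered a distal intergenic peak in 7 of 33 cases (21.2%, 8.98 to 38.9), with 54.1 per Mb. This interval included the 13.5% of all bordering genes. The visceral mesoderm forkhead gene bin had a peak 1243 bp upstream with values of 333, 164 and 537 in replicates 1, 2 and 3. The T-box gene Doc2 bordered 6 peaks, the strongest with values of 275, 263 and 411, and Doc1 bordered 1 that lay 456 bp from its end.

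Shares in the lists of other functions ran from 5.56% to 19.3%, apart from the short list of insulator genes. Axon guidance and cell adhesion genes bordered a distal intergenic peak in 16 of 83 cases (19.3%, with 17.0 per Mb), led by dpr17, DIP-delta and robo2. Ion channel and neurotransmitter receptor genes did so in 7 of 49 (14.3%, 16.2 per Mb), with nAChRalpha7, SK and Octbeta1R first. Ecdysone response genes did so in 2 of 21 (9.52%, 4.90 per Mb), sad and Eip93F, and chemoreceptor genes in 7 of 100 (7.0%, 15.8 per Mb), led by Gr89a, Gr93a and Gr93b. Cuticle protein genes came to 6 of 57 (10.5%, 30.05 per Mb), with Cpr76Ba, Cpr65Eb and Cpr65Ec first, and cytoplasmic ribosomal protein genes to 5 of 33 (15.2%, 11.4 per Mb), with RpLP0, RpL37-1 and RpL17 first. Serpin, protease and immune peptide genes came to 2 of 36 (5.56%, 17.9 per Mb), Spn43Aa and CecC. Of 8 insulator and chromatin architecture genes that border eligible sequence, 2 bordered a distal intergenic peak, the BTB genes lola and psq, with 179.8 per Mb over the 0.0111 Mb of eligible sequence beside the 8 genes.

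Among non-coding RNA genes, the share bordering a peak was above the 13.5% of all bordering genes for long non-coding RNA genes. The intervals for tRNA, antisense RNA and microRNA genes included 13.5%. Long non-coding RNA genes bordered a distal intergenic peak in 263 of 1142 cases (23.03%, exact 95% interval 20.6 to 25.6), with 34.1 per Mb, and tRNA genes in 14 of 68 (20.6%, 11.7 to 32.1), with 81.9 per Mb. The tRNA count includes the gap of 14 peaks beside tRNA:Ile-TAT-1-2, and tRNA:Phe-GAA-1-7 bordered 4. Antisense RNA genes did so in 6 of 53 (11.3%, 34.4 per Mb), with asRNA:CR45326, asRNA:CR45260 and asRNA:CR45466 first. For microRNA genes the count was 2 of 20 (11.4 per Mb), mir-9385 on chromosome 4 and mir-219.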

How the data were processed

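The authors deposited peak lists in narrowPeak format on dm6: 1 for each of 3 replicates, 1 pooled and 1 thresholded. The signal value per peak and the -log10 q value are the authors' own, as deposited; signal was used only within a list and -log10 q values were not used. No source used here names the aligner or peak caller. The lists hold no read counts, so depth is unknown.

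Every arm name and peak end was checked against the Release 6 reference. Summits were classed against Ensembl release 115 genes, transposable elements left out (18164 genes). The 899 peaks covered 895 distinct regions, since a region can hold several summits. Replicate values are those of the strongest overlapping peak (1 bp or more), and replicate shares use each list's 7287 strongest peaks. Differences were tested over the 3 replicates by exact two-sided sign-flip permutation, in Python 3 with SciPy and pandas. Intervals are exact binomial at 95% and cover counting of peaks only. Scripts were tested on simulated data.

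The members, 16 gene lists and 18 sequence elements were chosen with earlier results of these data known. Genes named are those at the 15 strongest peaks, the 5 farthest, the 5 most crowded gaps and 3 on each side of the limit, and up to 3 per list by strongest peak. The most crowded gaps came to 6 through a tie. The gap of Wnt4 and wg, the words CACTGAGA and CACTGNNAA were picked after their values were seen. Of list names, 11 matched through an older name and 6 did not match. Other settings were start site distance, gene set, stronger peaks, overlap, window and leaving out each replicate.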

Additional observations from a re-analysis of the deposited data

How the results depend on the processing

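Of 108 values recomputed under other settings, 58 were counted as the same and 50 as moved. Same meant within their error, or of the same sign for log2 differences and ratios. For the number of peaks it meant within a ratio wider than the counting error, so 660 to 1152 counted as the same. The differences in log2 signal and in log2 density kept their sign under all settings run. The number of distal intergenic peaks ran from 678 at a start site distance of 2000 bp to 1152 with protein-coding genes only. It was 409 in the stronger part of the list. With 1 replicate left out no peaks were called anew. Instead, 660 to 713 of the 899 peaks were found among the strongest peaks of both other replicates, a filter that the 899 do not carry. The difference in median log2 signal from distal intronic peaks ran from -0.049 to -0.0034 and that from promoter peaks from -0.22 to -0.17. The share found in all 3 replicates was 97.2% with all peaks of each list, 66.5% with the summit inside the replicate peak, and 73.4% to 79.3% in both others with 1 replicate left out. With protein-coding genes only, divergent, tandem and convergent gaps held 31.5%, 48.0% and 20.5%, and at 2000 bp 24.5%, 48.2% and 27.3%, so that at 2000 bp the order of the divergent and convergent shares was turned. With 1 peak per gap, added after seeing the data, divergent gaps held 25.05%. Among the peaks found in both other replicates with 1 left out, convergent gaps held 23.6% to 23.9%. The log2 density ratio of divergent to convergent gaps ran from 0.35 to 0.60 and that of divergent to tandem from 0.13 to 0.48 over settings added later, lowest with gaps over 50 kb left out. The median G+C was 30.7% over 100 bp. Element shares rise with the window by construction. At 100 bp either side the shares were GAGA repeat 9.12%, Zelda 0.779%, DRE 0.779%, CTCF core 3.34%, Su(Hw) core 2.00%, Ohler motif 7 4.45%, ZIPIC core 1.33%, GATA 4.34%, E-box 3.56%, homeodomain 19.2%, Pho core 3.11%, TATA 39.5%, A tract 16.8%, CA repeat 2.56%, Stat92E 4.56% and AP-1 4.56%. In the stronger distal intergenic peaks they were GAGA repeat 3.56%, Zelda 0.668%, DRE 0.0%, CTCF core 1.78%, Su(Hw) core 1.11%, Motif 1 0.445%, Ohler motif 7 1.11%, ZIPIC core 0.0%, GATA 2.90%, E-box 2.45%, homeodomain 12.2%, TATA 24.9%, A tract 8.69%, CA repeat 0.223%, Stat92E 2.45% and AP-1 3.12%. There CACTGAGA pointed toward 13.4% and CACTGNNAA toward 20.3% of summits. Among the peaks found in both other replicates with 1 left out, the shares were 11.4% and 20.5% to 20.9%. The cause of these shifts was not tested. A share resting on few peaks, such as DRE or Motif 1, can change by its own size with a single peak. Lists capped at 30000 peaks, a shared control and unknown depth limit what the signal values can show.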
